A study of Mus musculus with 18 samples.

Results

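The genes described are 8 antiviral effectors that type I interferon is known to induce: Ifit1, Ifit2 and Ifit3, Rsad2, and the oligoadenylate synthetase family genes Oasl1, Oasl2, Oas2 and Oas3. They were chosen by gene symbol, as a family whose high values on the somatodendritic Smn knockdown arrays were already known, and they are 8 of the 18191 genes that could be named on the arrays. Rsad2 had 3 probe sets and each other gene had 1, which makes 10 of 45101 probe sets. RNA came from mouse motoneurons taken from the spinal cord of E12.5 embryos, enriched by p75 panning and kept for 7 days in microfluidic chambers, in which axons grow through channels into a compartment of their own. The 18 Affymetrix arrays form 6 groups of 3: for the somatodendritic compartment and for the axonal compartment, motoneurons given a lentivirus with an shRNA against Smn, motoneurons given an empty lentiviral vector, and untreated wild-type motoneurons. All groups received CNTF at 5 ng/ml in both compartments, and BDNF at 20 ng/ml in the axonal compartment alone. No mouse strain is named, and the labels do not tell whether a group's arrays represent different cultures, so a p-value measures the spread between these arrays, which may be technical. The number of arrays, 3 per group, limits the precision of every value.

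Type I interferons are secreted proteins that bind the receptor chains Ifnar1 and Ifnar2, which act through Jak1 and Tyk2 on a complex that holds Stat2 and Irf9. That complex binds interferon-stimulated response elements near its target genes. Cells sense foreign or misplaced nucleic acids through receptors such as Rig-I, Mda5 and the endosomal Toll-like receptors, and these lead to interferon production. Ifit1 binds viral RNA that lacks the cap methylation of the host and keeps it from being translated, and Ifit2 and Ifit3 are related antiviral proteins. Oligoadenylate synthetases bind double-stranded RNA and make oligoadenylates, which act as a signal for the breakdown of RNA. Rsad2, also called viperin, differs from the others in that it is a radical SAM enzyme that turns CTP into a chain terminator of viral RNA polymerases. In the nervous system, neurons, astrocytes and microglia can all express these genes after interferon.

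The stretches of 250 bases before the annotated start of a gene are shown for 5 of the genes because they show how the presence of a response element core compares with how high the gene stood. They come from RefSeq on build GRCm38.p6 and run from 5′ to 3′ along the gene's own strand, with matches to the 10-base core GAAANNGAAA, searched on both strands, in capitals. A match on the opposite strand reads TTTCNNTTTC.
Ifit1 (chr19:34640639-34640888, plus strand): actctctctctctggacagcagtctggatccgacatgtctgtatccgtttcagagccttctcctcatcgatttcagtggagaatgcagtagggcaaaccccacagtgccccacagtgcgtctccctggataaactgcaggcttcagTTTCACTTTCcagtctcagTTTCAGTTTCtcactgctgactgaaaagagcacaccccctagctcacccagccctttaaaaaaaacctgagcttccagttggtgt
Ifit3 (chr19:34583279-34583528, plus strand): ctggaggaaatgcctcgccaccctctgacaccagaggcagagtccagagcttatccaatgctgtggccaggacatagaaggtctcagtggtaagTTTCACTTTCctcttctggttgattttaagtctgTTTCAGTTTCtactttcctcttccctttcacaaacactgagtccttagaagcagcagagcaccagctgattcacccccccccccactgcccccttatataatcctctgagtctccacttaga
Rsad2 (chr12:26456453-26456702, minus strand): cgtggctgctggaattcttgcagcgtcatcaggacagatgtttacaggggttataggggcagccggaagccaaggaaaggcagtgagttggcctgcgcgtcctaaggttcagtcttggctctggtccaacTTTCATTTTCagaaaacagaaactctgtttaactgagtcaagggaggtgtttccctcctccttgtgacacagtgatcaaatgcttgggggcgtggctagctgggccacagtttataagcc
Oas3 (chr5:120777660-120777909, minus strand): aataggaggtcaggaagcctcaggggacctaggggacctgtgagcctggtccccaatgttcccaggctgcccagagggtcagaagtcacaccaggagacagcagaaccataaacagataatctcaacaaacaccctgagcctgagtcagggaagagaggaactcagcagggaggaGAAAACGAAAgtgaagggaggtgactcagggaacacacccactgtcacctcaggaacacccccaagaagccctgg
Oasl2 (chr5:114896684-114896933, plus strand): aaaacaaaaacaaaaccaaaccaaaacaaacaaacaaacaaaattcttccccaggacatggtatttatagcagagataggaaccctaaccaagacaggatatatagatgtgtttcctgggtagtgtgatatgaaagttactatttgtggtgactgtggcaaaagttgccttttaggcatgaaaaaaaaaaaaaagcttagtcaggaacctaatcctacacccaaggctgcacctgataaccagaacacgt
Across all 32851 windows of this length, 978 held the core, which is 2.98%, and 59 held it 2 or more times, which is 0.18%. Of the 8 genes, 7 had a window, with 8 windows among them, and 4 of these 7 genes held the core. The window of Ifit1 held it 2 times, at 104 to 95 and at 85 to 76 bases before the start, and that of Ifit3 held it 2 times, at 156 to 147 and at 122 to 113 bases. Rsad2 held it at 120 to 111 bases and Oas3 at 75 to 66 bases before the start. Neither window of Ifit2 nor those of Oasl1 and Oasl2 matched these letters. Oas3 thus had a match but stood below background on all 18 arrays, while Oasl2 had no match and stood far above background on the somatodendritic knockdown arrays. A match is a description of the letters and does not show a bound site.

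Levels are log2 values as the authors deposited them, and each array's background was set at the 95th percentile of 151 probe sets for olfactory, vomeronasal and taste receptors, keratin-associated proteins and defensins. That background was 6.28 to 6.54 on the somatodendritic arrays and 6.55 to 7.64 on the axonal arrays. Between 9914 and 10501 genes stood above it on the somatodendritic arrays, against 4979 to 6747 on the axonal Smn knockdown arrays, 6532 to 8654 on the axonal empty vector arrays and 8706 to 9563 on the axonal wild-type arrays. Smn1, the targeted gene, was below background on 17 of the 18 arrays, so the knockdown could not be checked. The exception was the first axonal empty vector array, at 7.01 with a background of 6.86. The values of Smn1 on the somatodendritic arrays were 4.99, 5.20 and 4.99 with the Smn knockdown, 5.20, 5.02 and 5.38 with the empty vector and 5.12, 4.93 and 4.86 in wild-type cells. The knockdown arrays are titled by another numbering scheme than the control arrays. Whether they were handled apart was not stated in the labels, so handling and knockdown cannot be told apart. Of 14 neuronal markers, 8 or 9 stood above background on each somatodendritic array. Ngfr, Prph, Tubb3, Nefl, Nefm, Snap25, Gap43 and Stmn2 were above it on every array of that compartment. Isl1 was above it on 1 empty vector and 1 wild-type array there. The cholinergic genes Chat, Slc18a3 and Slc5a7 and the motoneuron factor Mnx1 were below background on all 18 arrays.

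**Figure D1:**
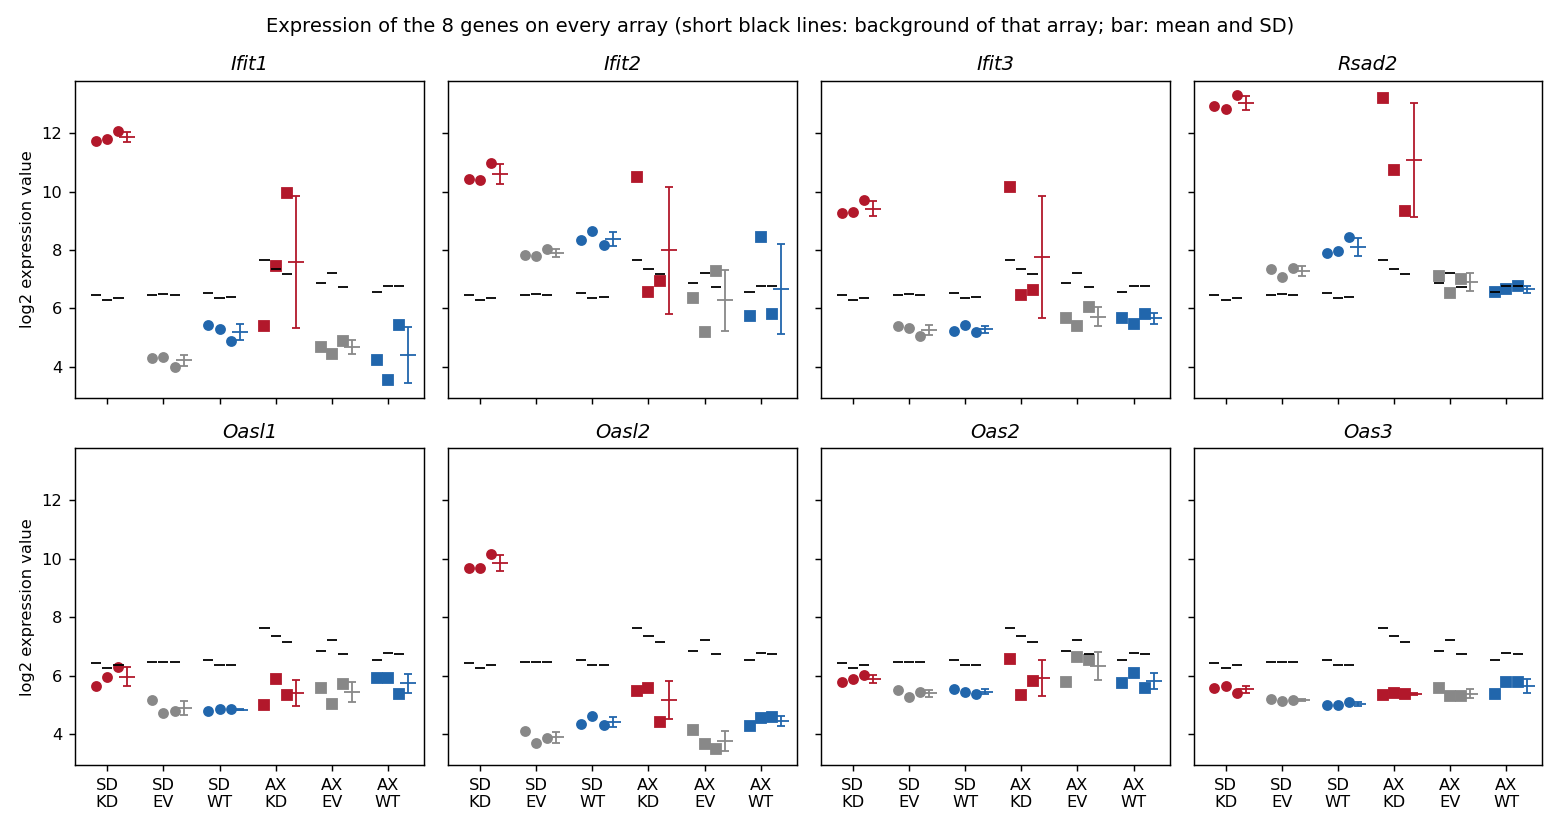
Log2 expression value (vertical axis) of each of the 8 genes on all 18 arrays, with SD for somatodendritic, AX for axonal, KD for Smn knockdown, EV for empty vector and WT for wild-type on the horizontal axis. Points are arrays, crosses with bars are the mean and SD of 3 arrays, and short black lines mark each array's background. Ifit1, Rsad2 and Oasl2 stand far higher on the somatodendritic knockdown arrays than on the somatodendritic control arrays. Oasl1, Oas2 and Oas3 stay below background throughout.

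On the somatodendritic arrays all 8 genes were higher on every Smn knockdown array than on any empty vector array and than on any wild-type array. Of all genes, 19.6% were separated in this way from the empty vector and 20.9% from wild-type. Because the genes were picked with these arrays known, their differences here are given as a description and were not tested. The differences ranged widely: Ifit1, Oasl2 and Rsad2 lay more than 5 log2 units above the empty vector, while Oas2 and Oas3 lay less than 1 unit above it. The median difference of the 8 genes was 3.44 against the empty vector and 3.18 against wild-type, beside medians of -0.02 and -0.03 over all genes. Both comparisons use the same 3 knockdown arrays. Bulk arrays cannot tell fewer cells of a type from less RNA per cell.

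Ifit1, which binds RNA ends that lack host cap methylation, read 11.74, 11.79 and 12.07 on the somatodendritic Smn knockdown arrays, against 4.31, 4.34 and 4.00 on the empty vector arrays and 5.42, 5.30 and 4.88 on the wild-type arrays. The control arrays were all below background, and the empty vector arrays all lay below the wild-type arrays. Ifit1 averaged 11.86 ± 0.18 in knockdown and 4.22 ± 0.19 in empty vector cells (SD, n = 3 each), a log2 difference of 7.65. Set against the level at which a gene counts as measured, this is at least 42.1-fold, and the difference of 6.66 from wild-type is at least 43.2-fold.

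Ifit2, a relative of Ifit1 that in mice is known to protect neurons from several neurotropic viruses, read 10.43, 10.39 and 10.99 with the Smn knockdown, against 7.84, 7.80 and 8.05 with the empty vector and 8.34, 8.64 and 8.17 in wild-type cells. It was above background on all 9 somatodendritic arrays, so its fold changes are measured on both sides. The knockdown lay 2.71 log2 units above the empty vector, which is 6.53-fold, and 2.22 units above wild-type, which is 4.67-fold.

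Ifit3, whose human counterpart stabilises IFIT1 on RNA, read 9.28, 9.28 and 9.70 with the Smn knockdown, against 5.38, 5.33 and 5.05 with the empty vector and 5.23, 5.43 and 5.19 in wild-type cells. All control arrays were below background and the 2 control groups overlapped. The differences of 4.16 from the empty vector and 4.14 from wild-type are at least 7.74-fold and at least 7.94-fold. Ifit3b, a near copy of Ifit3, was not analysed here, and the Ifit3 probe set may not tell the copies apart.

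Rsad2, the viperin gene, read 12.94, 12.83 and 13.29 on its leading probe set with the Smn knockdown, against 7.36, 7.07 and 7.38 with the empty vector and 7.90, 7.96 and 8.45 in wild-type cells. All 9 arrays were above background, and the 3 groups did not overlap. The knockdown lay 5.75 log2 units above the empty vector, which is 53.7-fold, and 4.92 units above wild-type, which is 30.2-fold. The other Rsad2 probe sets were below background on the control arrays and gave differences of 2.14, at least 2.57-fold, and 6.16, at least 14.6-fold, from the empty vector. The 3 probe sets thus gave one direction with different sizes.

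Oasl2, which in mice carries both synthetase activity and ubiquitin-like domains, read 9.70, 9.68 and 10.18 with the Smn knockdown, against 4.10, 3.70 and 3.88 with the empty vector and 4.34, 4.62 and 4.31 in wild-type cells. Only the knockdown arrays were above background. The differences of 5.96 from the empty vector and 5.44 from wild-type are at least 10.5-fold and at least 10.7-fold.

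Oasl1, which lacks synthetase activity and in mice restrains translation of Irf7, read 5.66, 5.96 and 6.30 with the Smn knockdown, against 5.17, 4.72 and 4.80 with the empty vector and 4.81, 4.85 and 4.86 in wild-type cells. Oas2, a synthetase, read 5.78, 5.89 and 6.03 with the Smn knockdown, against 5.51, 5.27 and 5.43 with the empty vector and 5.55, 5.44 and 5.37 in wild-type cells. Oas3, the largest of the synthetases, read 5.56, 5.64 and 5.41 with the Smn knockdown, against 5.19, 5.12 and 5.18 with the empty vector and 5.00, 5.01 and 5.12 in wild-type cells. These 3 genes were below background on every array, so no fold is given. Their log2 differences from the empty vector were 1.07 for Oasl1, 0.49 for Oas2 and 0.38 for Oas3.

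Between the somatodendritic control groups the differences of the 8 genes ran from -0.98 to 0.12 log2 units, and the empty vector was mostly the lower. Of the 8 genes, 4 were lower on every empty vector array than on any wild-type array and 1, Oas3, was higher, beside 10.8% and 8.05% of all genes. Rsad2 lay 0.83 log2 units lower with the empty vector, at 7.27 ± 0.17, than in wild-type cells at 8.10 ± 0.30 (SD, n = 3 each), a ratio of 1.78-fold. Ifit2 lay 0.48 units lower, a ratio of 1.40-fold. Ifit1 and Oasl2 had differences of -0.98 and -0.53 but were below background in both groups, as were the remaining genes.

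In the axonal compartment the 8 genes were uneven across the Smn knockdown arrays, and Rsad2 stood highest above the controls. The genes are not known to have been picked on these arrays, and limma was fitted to the 9 axonal arrays over all 18191 genes. None of the 8 genes passed an adjusted p of 0.05 against the empty vector, where 0.0165% of all genes were called higher and 0.159% lower. At an unadjusted p under 0.05, 4 of the 8 were higher, beside 10.9% of all genes. Against wild-type, which shares the knockdown arrays, none was called, beside 0.0055% of all genes called higher and 0.0935% called lower, and 3 were higher at an unadjusted p under 0.05, beside 12.9%. The call depended on the fit: with all 18 arrays in 1 fit, 4 genes were called against the empty vector (Ifit1, Ifit3, Rsad2 and Oasl2) and 3 against wild-type (Ifit1, Ifit3 and Rsad2). In that fit the narrower somatodendritic spread of these genes enters the axonal tests and lowers their p-values. The share of all genes called in that fit is not given here, so these counts have no background and are no evidence for a difference. The median difference of the 8 genes was 1.56 from the empty vector and 1.02 from wild-type, beside 0.06 and 0.03 over all genes.

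Rsad2 read 13.19, 10.74 and 9.33 on the axonal Smn knockdown arrays, against 7.12, 6.54 and 7.01 on the empty vector arrays and 6.55, 6.65 and 6.78 on the wild-type arrays. It was the only one of the 8 genes above background on all 3 axonal knockdown arrays, and no control array reached the lowest of them. The log2 difference from the empty vector was 4.20 (SE 0.82, limma adjusted p = 0.0719), at least 15.7-fold. From wild-type it was 4.43 (limma adjusted p = 0.0595), at least 21.0-fold. Its other probe sets read 8.69, 5.60 and 5.95 and 7.77, 5.57 and 6.39 on the axonal knockdown arrays, so that they were above background on the first array alone.

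Ifit1 read 5.40, 7.44 and 9.94 on the axonal Smn knockdown arrays, against 4.69, 4.44 and 4.89 with the empty vector and 4.25, 3.53 and 5.42 in wild-type cells. The third knockdown array was the highest and the first lay just under the highest wild-type array. The difference from the empty vector was 2.92 (SE 1.01, limma adjusted p = 0.187, unadjusted p = 0.0191), and the 2 groups did not overlap. One knockdown array was below background, so no fold is given. Without the third knockdown array the difference was 1.74, and without the first it was 4.01.

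Ifit3 read 10.15, 6.47 and 6.62 on the axonal Smn knockdown arrays, against 5.68, 5.40 and 6.07 with the empty vector and 5.67, 5.48 and 5.82 in wild-type cells. Ifit2 read 10.49, 6.57 and 6.92 with the Smn knockdown, against 6.35, 5.20 and 7.27 with the empty vector and 5.73, 8.45 and 5.80 in wild-type cells. For both genes the first knockdown array stood apart from the other 2, which were below background. The difference from the empty vector was 2.03 for Ifit3 (SE 0.87, limma adjusted p = 0.266) and 1.72 for Ifit2 (SE 1.16, limma adjusted p = 0.477). Without the first knockdown array these were 0.83 for Ifit3 and 0.47 for Ifit2, and 3.14 for Rsad2.

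Oasl2 read 5.49, 5.58 and 4.43 on the axonal Smn knockdown arrays, against 4.14, 3.66 and 3.49 with the empty vector and 4.27, 4.54 and 4.57 in wild-type cells. All of these are below background, although the knockdown and empty vector arrays did not overlap. The difference from the empty vector was 1.40 (SE 0.36, limma adjusted p = 0.114). Oasl1, Oas2 and Oas3 had axonal differences of -0.03, -0.41 and -0.01 from the empty vector, with limma adjusted p of 0.971, 0.622 and 0.983. They read 5.00 to 5.89, 5.35 to 6.57 and 5.33 to 5.41 on the axonal knockdown arrays, below background on each.

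Counted by overlap, 4 genes (Ifit1, Ifit3, Rsad2 and Oasl2) were higher on every axonal knockdown array than on any empty vector array, beside 13.3% of all genes, and 2 (Ifit3 and Rsad2) than on any wild-type array, beside 18.8%. Between axonal empty vector and wild-type arrays limma called none of the 8, with 0 at an unadjusted p under 0.05, beside 1.18% of all genes higher at that level and 0% called. Oasl2 alone was lower on every empty vector array than on any wild-type array, beside 4.54% of all genes. The differences there ran from -0.70 to 0.50, and all 8 genes were below background on 1 or more arrays of each group. The 3 axonal knockdown arrays had 4979, 6051 and 6747 genes above background, the first being the lowest of the 18 arrays. The bearing of this lower detection on the axonal values was not tested.

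**Figure D2:**
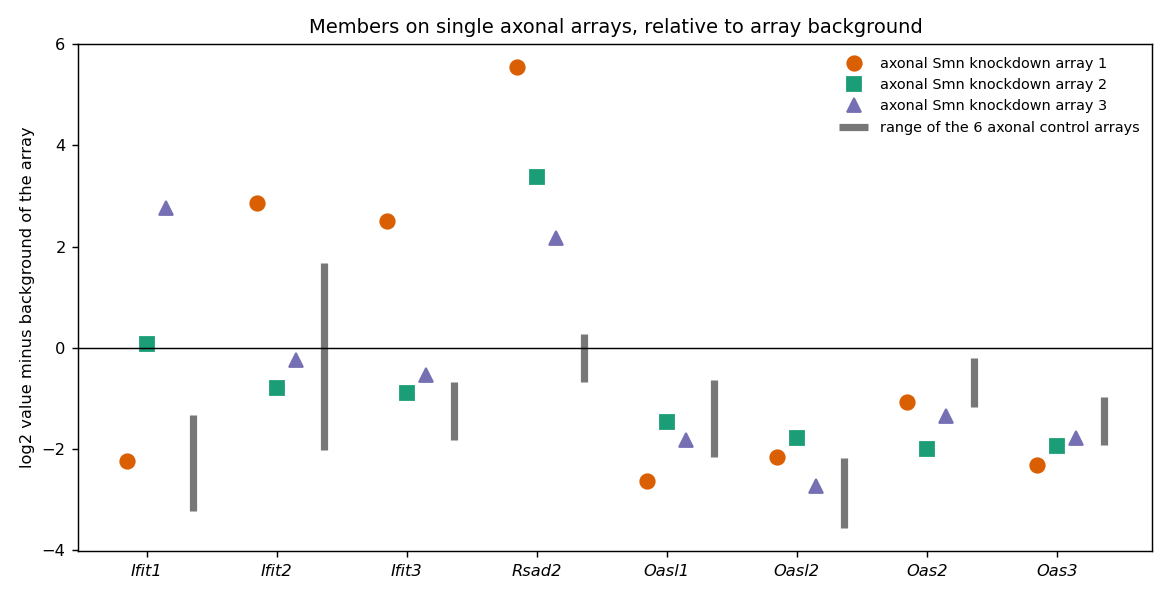
Log2 value minus the array's background (vertical axis) for each of the 8 genes (horizontal axis) on the 3 axonal Smn knockdown arrays, shown as separate symbols, and the range over the 6 axonal control arrays, shown as a grey bar. The line at 0 is the background. The first array is the highest for Ifit2, Ifit3 and Rsad2, the third is the highest for Ifit1, and Rsad2 alone is above background on all 3.

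Set in order over the 6 groups, the somatodendritic Smn knockdown was the highest group for Ifit1, Ifit2, Ifit3, Rsad2, Oasl1 and Oasl2. It was separate from the next group for Ifit1 with a gap of 1.80 log2 units, for Ifit2 with 1.76 and for Oasl2 with 4.10, and it overlapped the next group for Ifit3, Rsad2 and Oasl1. The axonal knockdown was second for Ifit1 at 7.59 ± 2.27, for Ifit3 at 7.75 ± 2.08, for Rsad2 at 11.09 ± 1.95 and for Oasl2 at 5.16 ± 0.64 (SD, n = 3 each). On the somatodendritic knockdown arrays the SDs of these genes were 0.18, 0.24, 0.24 and 0.28. The axonal knockdown was separate from the next group for Rsad2, by 0.88, and for Ifit3, by 0.41, and it overlapped the next group for Ifit1 and Oasl2. Among the control groups of Ifit1, Ifit3, Rsad2 and Oasl2, neighbours in this order overlapped with 3 exceptions. The somatodendritic empty vector lay below somatodendritic wild-type by 0.51 for Rsad2 and by 0.21 for Oasl2, and axonal wild-type lay above somatodendritic wild-type by 0.04 for Ifit3. For Oas2 and Oas3 an axonal control group was the highest, at levels below background.

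Within the Smn knockdown, Ifit1 was at least 11.5-fold and Oasl2 at least 5.52-fold higher in the somatodendritic than in the axonal compartment, and their arrays did not overlap. Ifit2, Ifit3 and Rsad2 had somatodendritic minus axonal differences of 2.61, 1.67 and 1.93, with overlapping arrays in each. The compartments were normalized apart, so these differences across them are values with no test. In empty vector cells Ifit2 was also higher in the somatodendritic compartment, by 1.62 log2 units, at least 1.72-fold, with separate arrays. In wild-type cells the same held for Rsad2, by 1.44, at least 2.65-fold. Separate the other way, at levels dim in both compartments, were Ifit1, Ifit3, Oas2 and Oas3 in empty vector cells. In wild-type cells these were Ifit3, Oasl1, Oas2 and Oas3.

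Other genes of the interferon pathway were counted from 6 lists, which were drawn up with earlier results of these arrays known. Of 79 measured genes, 47 rose and 5 fell on the somatodendritic Smn knockdown arrays against the empty vector (limma adjusted p under 0.05), beside 12.46% of all genes called higher and 15.5% called lower. Against wild-type 37 rose and 7 fell, beside 15.6% and 20.4%. Of the 79 genes, 31 were dim in both groups of the first comparison. In 1 fit to all 18 arrays, which takes in the wider axonal spread, 23 rose and none fell against the empty vector. The share of all genes called in that fit is not given here. On the axonal arrays limma called none of the 79 for the knockdown, while at an unadjusted p under 0.05 there were 14 higher and 3 lower against the empty vector, beside 10.9% and 7.37% of all genes. Against wild-type there were 16 higher and 7 lower at that level, beside 12.9% and 8.03% of all genes.

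Among interferon ligands, 3 of 7 measured genes rose against the empty vector and 1 of 7 against wild-type, and all 7 were dim in every somatodendritic group. Of all genes, 12.46% were called higher in the first comparison and 15.6% in the second, so the count against wild-type is near its share. Against the empty vector the genes that passed were Ifna2 with a log2 difference of 0.91, Ifna4 with 0.44 and Ifna5 with 0.32. Against wild-type Ifna2 passed with 0.82, while Ifna4 with 0.23 and Ifna5 with 0.14 did not (limma adjusted p = 0.156 and 0.256). Ifnb1, the interferon beta gene, averaged 4.96 ± 0.13 in knockdown and 4.90 ± 0.16 in empty vector cells (SD, n = 3 each), and the difference of 0.06 was not called (SE 0.11, limma adjusted p = 0.750). Ifnb1 was below background on all 18 arrays, so a difference at low levels was not detectable.

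Of the receptors, kinases and transcription factors, 7 of 14 rose and 3 fell against the empty vector, while 2 rose and 3 fell against wild-type. Of all genes, 12.46% were called higher and 15.5% lower against the empty vector, and 15.6% and 20.4% against wild-type. The counts against wild-type, and the 3 that fell against the empty vector, are near these shares. Irf9, the DNA-binding part of the interferon-activated complex, rose by 2.27 (SE 0.10, limma adjusted p = 2.07e-08), at least 3.45-fold, and its partner Stat2 by 1.43, at least 1.16-fold. The receptor chain Ifnar2 rose by 0.54, while Ifnar1 differed by -0.01 (SE 0.10, limma adjusted p = 0.938). The kinase Jak1 fell by 0.70 and the interferon gamma receptor chain Ifngr2 fell by 0.43. Irf7, which drives interferon alpha genes, rose by 0.31 (limma adjusted p = 0.0332) at levels below background in both groups. Against wild-type neither Ifnar2, with 0.21, nor Irf7, with 0.14, passed (limma adjusted p = 0.175 and 0.311). On the axonal arrays Irf7 averaged 8.64 ± 0.86 with the knockdown and 6.29 ± 0.36 with the empty vector (SD, n = 3 each), without passing the test.

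Of the nucleic acid sensors and adaptors, 10 of 17 rose and 1 fell against the empty vector, beside 12.46% and 15.5% of all genes. Against wild-type 8 rose and 1 fell, beside 15.6% and 20.4% of all genes. Ifih1, which encodes Mda5, a sensor of long double-stranded RNA, rose by 4.38 (SE 0.18, limma adjusted p = 8.51e-09), at least 10.7-fold. Ddx58, which encodes Rig-I, a sensor of RNA ends, was 6.60-fold higher, and Tlr3, an endosomal receptor for double-stranded RNA, was at least 4.02-fold higher. Eif2ak2, the kinase PKR, rose by 1.89, at least 1.07-fold, and Tlr7, a receptor for single-stranded RNA, rose by 1.61 at dim levels.

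Of the interferon-induced effectors outside the 8 genes, 17 of 24 rose and none fell against the empty vector, beside 12.46% and 15.5% of all genes. The median difference was 2.40, beside -0.02 over all genes. Against wild-type 18 rose and 1 fell, beside 15.6% and 20.4% of all genes. Usp18, which removes Isg15 from proteins and damps the receptor, rose by 6.41 (SE 0.12, limma adjusted p = 1.47e-11), at least 28.5-fold. Ifi35 and Rtp4, an inhibitor of flavivirus replication, were at least 18.2-fold and at least 22.9-fold higher, Parp14 at least 5.69-fold and Ifi27 9.02-fold. On the axonal knockdown arrays Rtp4 averaged 9.35 ± 1.49 and Usp18 8.19 ± 1.23, against 5.41 ± 0.34 and 5.43 ± 0.16 with the empty vector (SD, n = 3 each), which did not pass the test. Isg15 was not analysed here.

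Of the remaining oligoadenylate synthetase and Ifit genes, with the neighbour of Rsad2, Cmpk2, 6 of 9 rose and none fell against the empty vector. Against wild-type 7 rose and none fell. The shares of all genes called higher were 12.46% and 15.6%, and those called lower 15.5% and 20.4%. Oas1a, an oligoadenylate synthetase, rose by 2.73 (SE 0.10, limma adjusted p = 1.88e-09), at least 6.63-fold. Oas1b, a further copy of that synthetase gene, was at least 2.64-fold higher, and the Ifit1 relative Ifit1bl1 at least 1.59-fold. Cmpk2, a mitochondrial nucleotide kinase whose gene lies next to Rsad2, was 2.44-fold higher, averaging 10.99 ± 0.38 in knockdown and 9.70 ± 0.20 in empty vector cells (SD, n = 3 each). Ifit1bl2 rose by 0.61 at dim levels.

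Among the negative regulators, 4 of 8 rose and 1 fell against the empty vector, and 1 rose and 2 fell against wild-type. The shares over all genes were 12.46% higher and 15.5% lower against the empty vector, and 15.6% and 20.4% against wild-type. The 1 that fell against the empty vector and the counts against wild-type are near these shares. Nlrc5, which is also known as an activator of MHC class I genes, rose by 3.06, at least 1.80-fold, and Socs3, which blocks Jak kinases, by 0.30. Tnfaip3, an inhibitor of NF-kappaB signalling, rose by 0.72 against the empty vector but fell by 0.81 against wild-type. The phosphatase gene Ptpn6 rose by 0.38 and Ptpn11 fell by 0.57 against the empty vector. Against wild-type Ptpn6, with -0.07, and Socs3, with 0.15, did not pass (limma adjusted p = 0.619 and 0.185).

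**Figure D3:**
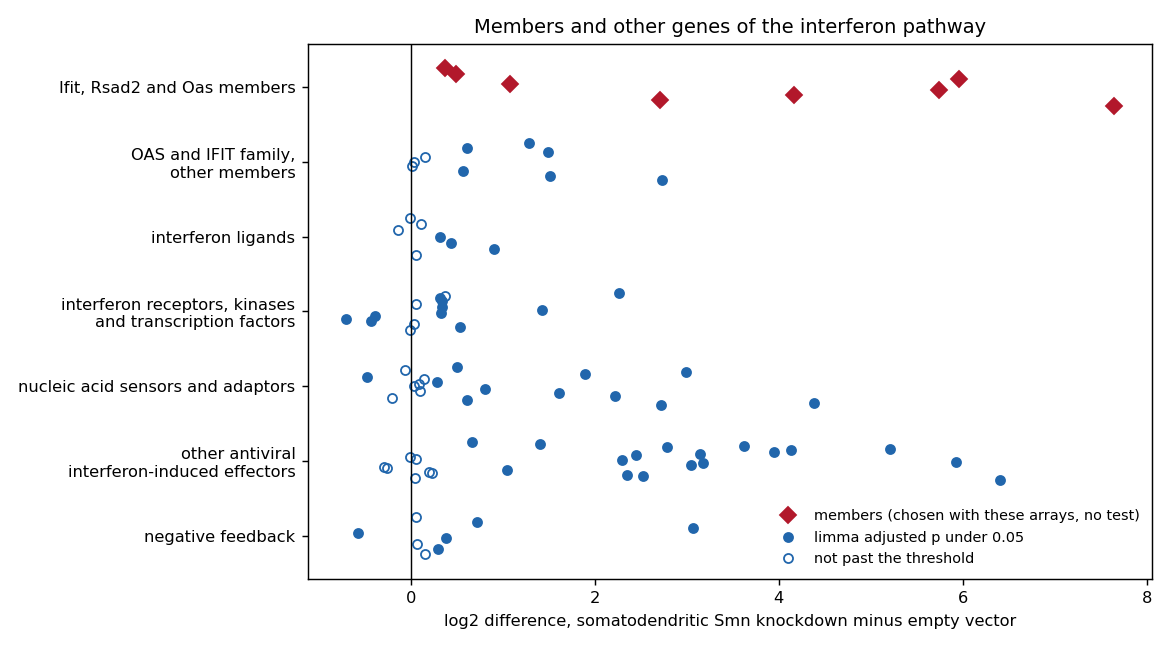
Log2 difference, somatodendritic Smn knockdown minus empty vector (horizontal axis), for the 8 genes (diamonds, not tested) and for the 79 genes of the 6 pathway lists (circles, one row per list). Filled circles passed a limma adjusted p of 0.05 and open circles did not. The 8 genes reach 7.65, the ligands stay under 1, and the effectors spread up to 6.41.

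Between somatodendritic empty vector and wild-type arrays, none of the 79 genes was higher and 7 were lower, beside 0.484% and 1.52% of all genes. They include Oas1a, with a log2 difference of -0.64, at least 1.55-fold lower, and Ifih1 with -0.98, dim in both groups. Parp14 is a further one with -1.02, and its empty vector group was dim. Of the 8 genes, 6 had a negative difference in this comparison, the smallest being -0.03 for Ifit3 and -0.05 for Oas2, while Oasl1 and Oas3 had positive differences of 0.06 and 0.12.

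Markers of microglia and macrophages moved with the 8 genes in the comparison with the empty vector. Like the pathway lists, the marker lists were drawn up with earlier results of these arrays known. Of 15 measured markers, 12 were higher on the somatodendritic Smn knockdown arrays, and none was lower, beside 12.46% and 15.5% of all genes, and the median difference was 2.26. The signalling adaptor gene Tyrobp was at least 7.51-fold higher, the lysosomal membrane gene Laptm5 12.1-fold, the leukocyte phosphatase gene Ptprc at least 9.41-fold and the macrophage lysosomal gene Cd68 at least 3.99-fold. The receptor gene Csf1r was 8.02-fold higher and above background on every somatodendritic array. C1qb and C1qc were above it on all knockdown and wild-type arrays of that compartment and on no empty vector array. P2ry12, Tmem119 and Itgam were below background on all 18 arrays, although Itgam, with a difference of 0.42, is among the 12 called higher.

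The list's mean level was 7.62, 7.47 and 7.80 on the somatodendritic knockdown arrays, against 5.90, 5.74 and 5.62 on the empty vector arrays and 7.28, 7.24 and 7.19 on the wild-type arrays. The mean level of the 8 genes was 8.89, 8.93 and 9.25 with the knockdown, against 5.61, 5.42 and 5.47 with the empty vector and 5.82, 5.91 and 5.79 in wild-type cells. On both measures every wild-type array lay above every empty vector array and below every knockdown array. For the marker list the wild-type arrays lay nearer the knockdown arrays, and for the 8 genes nearer the empty vector arrays. The bearing of the marker levels on the 8 genes was not tested. Against wild-type, 7 of the 15 markers were higher and 1 lower, beside 15.6% and 20.4% of all genes, with a median of 0.24. Between empty vector and wild-type, 9 of the 15 were lower and none higher, beside 1.52% and 0.484% of all genes, with a median of -1.51.

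On the axonal arrays the list read 8.64, 6.71 and 6.66 with the knockdown, against 5.89, 6.27 and 5.96 with the empty vector and 9.37, 7.16 and 6.73 in wild-type cells. The first knockdown array, where Ifit2, Ifit3 and Rsad2 were highest, also had the highest level of the list among the knockdown arrays. The first wild-type array had a higher one still, and there the mean of the 8 genes was 5.44. On the axonal arrays limma called 0 of the 15 markers for the knockdown against the empty vector, with 4 higher at an unadjusted p under 0.05, beside 10.9% of all genes. The bearing of such cells on the levels of the 8 genes was not tested. Oligodendrocyte precursor markers were lower for 4 of 5 and astrocyte markers for 5 of 8 on the somatodendritic knockdown arrays against the empty vector, beside 15.5% of all genes, and none of either list was higher. Endothelial markers were lower for 1 of 5, near that 15.5%, and none was higher. Of 6 fibroblast markers limma called 0 against the empty vector, with 0 at an unadjusted p under 0.05. Against wild-type, 5 of 5 oligodendrocyte precursor, 3 of 8 astrocyte, 2 of 6 fibroblast and 2 of 5 endothelial markers were lower, beside 20.4% of all genes. Among these lists 1 gene, the astrocyte marker Fabp7, was called higher against wild-type, beside 15.6% of all genes. Of 14 neuronal markers 2 were called higher and 2 lower against the empty vector, beside 12.46% and 15.5% of all genes. The log2 differences were 1.00 for Gap43, 0.34 for Isl2 at dim levels and -0.46 for each of Nefl and Nefm. Against wild-type 3 were higher and 1 lower, beside 15.6% and 20.4% of all genes.

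**Figure D4:**
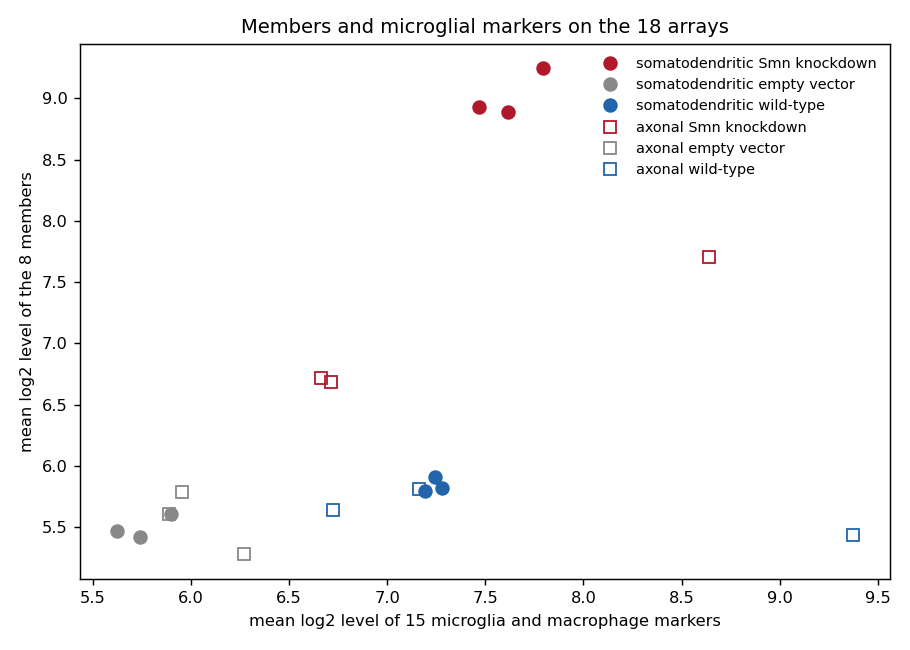
Mean log2 level of the 8 genes (vertical axis) against the mean log2 level of 15 microglia and macrophage markers (horizontal axis) on each of the 18 arrays. Filled circles are somatodendritic and open squares axonal arrays, coloured by condition. Somatodendritic wild-type arrays lie at 7.19 to 7.28 on the marker axis. For the 8 genes they lie at 5.79 to 5.91, above the somatodendritic empty vector arrays at 5.42 to 5.61.

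Across the 6 group means, each centred within its compartment, the genes whose pattern lay closest to the mean of the 8 were Mndal, Irgm1, Ifitm3, Rnf213, Phf11d and Psmb8. Their root mean square differences from that mean ran from 0.109 for Mndal to 0.245 for Psmb8, on the log2 scale. Of the 8 genes themselves Ifit2, at 0.313, and Ifit3, at 0.351, lay closest, and Ifit1 lay farthest, at 1.39. Ifit1 exceeded the mean of the 8 in the size of its change, and Oas2 and Oas3, at 1.11, fell short of it.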

How the data were processed

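The authors deposited 1 table of log2 values for 18 single-colour Affymetrix mouse arrays, made per the labels' protocols from RNA amplified in 2 rounds. For the summarisation and normalization no software is named in the labels, and it is not given here. Values ran from 2.54 to 15.03, with a median of 5.77 on each somatodendritic and 5.95 on each axonal array, and sorted values differed by at most 0.0048 and 0.0125 within a compartment, so each compartment was treated as normalized apart. The log2 scale follows from that range, no centring on 0 was applied, and any scaling step before deposit stays unknown. From the deposited values, 64 control and 11 incomplete probe sets were left out. GEO's platform annotation gave 1 gene to 34958 probe sets, several to 932 and none to 9211, and 34754 gene identifiers matched RefSeq. Each of 18191 genes took its probe set of highest mean.

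Per compartment, limma 3.58.1 in R 4.3.3 fitted 3 group means, adjusting p-values by Benjamini-Hochberg across the 18191 genes (threshold 0.05), after testing on simulated data. A group with any array at or below background counts as dim. Against a dim group a fold is a lower bound, from the higher of each array's background and the value itself, and no fold is given where both are dim. The 8 genes and all lists were chosen with earlier results of these data known, so the 8 were tested on axonal arrays only. Named by rule were the 8 genes, up to 5 genes per pathway list and 4 per marker list of lowest p, Ifnb1, the receptor genes, Stat2, Irf9 and Irf7, and the 6 genes most like the 8. Further neuronal and microglial markers were named outside that rule, to tell which stood above background. Replicate numbers were not used as pairs: of 30 same-numbered pairs, 1 correlated above 0.1 (range -0.193 to 0.227). Such correlations cannot exclude a shared preparation, and the knockdown arrays are numbered by another scheme than the controls, so whether arrays were paired is not known. Alternatives were a replicate block, a filter on dim probe sets, joint quantile normalization, 1 fit to all arrays and leaving out each array.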

Additional observations from a re-analysis of the deposited data

How the results depend on the processing

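The limits are 3 arrays per group, high axonal background and an unstated normalization. In 1 fit to all 18 arrays, which shares the wider axonal spread, 23 other pathway genes were higher and 0 lower for the somatodendritic knockdown against the empty vector (main 47 and 5), 20 and 0 against wild-type (main 37 and 7), and 0 lower for empty vector against wild-type (main 7). The same fit called 4 of the 8 genes on the axonal arrays against the empty vector (Ifit1, Ifit3, Rsad2 and Oasl2) and 3 against wild-type (Ifit1, Ifit3 and Rsad2). There the narrower somatodendritic spread enters the axonal tests and lowers their p-values, so these calls are no evidence for a difference. Shares of all genes called in this fit are not given here. The filter on dim probe sets kept only Rsad2 of the 8, through its knockdown level, so the 1 call it gave in each axonal comparison is conditional on that level and is no evidence for a difference. Over the alternatives, in which the lowest values are those of the 1 fit to all arrays, the limma adjusted p of Rsad2 ran from 6.4e-04 to 0.285 and from 3.77e-04 to 0.2005 in these comparisons. For the 7 pathway genes lower in empty vector than in wild-type cells, the count was 3 under that filter, 4 with the replicate block, and 4 to 14 when leaving out 1 array, with 14 without wild-type replicate 3. Whether the replicate numbers pair samples is not known, and with the block 0 of the 8 genes were called on axonal arrays. Leaving out 1 array left 40 to 46 pathway genes higher against the empty vector and called 0 of the 8 axonally. Joint quantile normalization gave somatodendritic medians of 3.05 and 2.83 for the 8 genes against empty vector and wild-type, and turned the knockdown's somatodendritic minus axonal difference of Oas2 to 0.14. Values near 0 changed sign when leaving out 1 array: axonal knockdown against empty vector from -0.27 to 0.17 for Oasl1 and from -0.0612 to 0.0743 for Oas3, axonal knockdown against wild-type from -0.24 to 0.37 for Oas2, and somatodendritic empty vector against wild-type from -0.0799 to 0.15 for Oasl1, -0.11 to 0.0121 for Oas2 and -0.0914 to 0.0720 for Ifit3. The cause of these changes was not tested.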

Other observations

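The response element core GAAANNGAAA was looked for in the 250 bases before the start of the other pathway genes too. Of 63 genes with a window, 16 held it in any of their windows, beside 2.98% of all windows. The first count is of genes and the second of single windows, and a gene with several windows has more chances to match. Of the interferon ligands 5 of 7 genes held it, although all 7 were dim on the somatodendritic arrays. Among genes with a window it was held by 4 of 7 remaining oligoadenylate synthetase and Ifit genes and by 4 of 16 other effectors. It stood before 1 of 14 genes for receptors, kinases and transcription factors, 1 of 13 sensor genes and 1 of 6 negative regulators.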
